A study of Mus musculus with 50 samples.

Results

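Fos, Fosb, Jun, Junb, Atf3, Egr1, Nr4a1, Nr4a3, Ier2 and Myc are 10 immediate early genes whose transcripts are known to rise in muscle during and soon after exercise. DNA methylation at these genes was read in the soleus of WT and muscle-specific Dnmt3a knockout mice at rest and after treadmill running. A CpG was included when the promoter or the gene body to which the authors assigned it carried the Ensembl identifier of one of the 10 genes. This gave 201 of the 205304 CpGs measured, of which 113 lay in a promoter, 147 in a gene body and 59 in both. The authors' promoters reach 3000 bp before and 1000 bp past a transcription start. Promoters were measured for 8 of the 10 genes (of 9761 promoters in all), and gene bodies for all 10 (of 12391). The 201 CpGs fell into 23 of the 51038 clusters, which are runs of CpGs with gaps of at most 100 bp. The CpGs of Egr1 and Atf3 were assigned to the gene body alone.

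Immediate early genes are transcribed within minutes of a stimulus and need no newly made protein to be switched on. Their promoters are held ready, with bound serum response factor, CREB and paused RNA polymerase, and signals from calcium, MAP kinases and cAMP release transcription. Most of the products are transcription factors, and they carry the signal on to later genes. In skeletal muscle they respond to contraction. The promoters are typical CpG islands, stretches dense in CpGs that are as a rule free of methylation, and DNMT3A is one of the enzymes that add methyl groups to unmethylated DNA.

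The 21 WT mice carried Dnmt3a flox/flox alleles without Cre, and the 23 mD3AKO mice carried the same alleles with a Cre transgene driven by mCK, the muscle creatine kinase promoter. All were C57BL/6 mice of both sexes, 12 weeks old. They ran on a treadmill for 30 min and were killed 10, 30 or 60 min later, or were placed on a treadmill that did not run (rest). In the order rest, 10, 30 and 60 min, there were 5, 5, 5 and 6 WT mice and 5, 5, 7 and 6 mD3AKO mice. The mCK promoter becomes active late in muscle differentiation, so that satellite cells and the non-muscle cells of the tissue keep an intact Dnmt3a. Methylation was read by RRBS, in which DNA is cut at CCGG with MspI and bisulfite turns unmethylated cytosines into uracils, read as thymines. Each sample gave 12819404 to 41285655 calls, and its CpGs had a median coverage of 48 to 163 reads.

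The whole soleus was sampled, so a change in the share of a cell type and a change of methylation within its cells cannot be told apart. Promoters were measured for only 3 of 12 slow muscle marker genes, 1 of 7 blood cell genes, 1 of 4 endothelial genes and none of 5 liver genes, and the tissue label could not be checked from them. The deletion of Dnmt3a itself cannot be read from methylation calls. The samples numbered up to 25 came from rest and 60 min, and those with higher numbers from 10 and 30 min. Comparisons of 10 and 30 min with rest therefore cross these sets of numbers, whereas 60 min against rest and 30 against 10 min each lie within 1 set.

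MspI fragments held only a part of the CpGs of these genes. In the window around the start site, Fos had 19 of its 177 genomic CpGs measured, Jun 15 of 195, Junb 13 of 179, Fosb 7 of 127, Atf3 32 of 235, Egr1 2 of 195, Nr4a1 3 of 111, Nr4a3 24 of 261, Ier2 19 of 202 and Myc 15 of 151. The measured CpG nearest to the start site lay 56 bp away in Fos, 64 bp in Myc, 79 bp in Ier2, 106 bp in Nr4a3, 128 bp in Jun, 148 bp in Junb, 272 bp in Fosb, 316 bp in Egr1, 431 bp in Nr4a1 and 585 bp in Atf3. In the 120 bases just upstream of the start, 4 CpGs were measured in Myc and 1 in Ier2, and none in the other 8 genes. This stretch, where factors that switch such genes on are known to bind, is shown for 3 genes as it is in GRCm38.p6, on the strand of the gene and from the 5′ end. Capitals mark matches to the cAMP response element or its core.
Fos, chr12:85473770-85473889 (+): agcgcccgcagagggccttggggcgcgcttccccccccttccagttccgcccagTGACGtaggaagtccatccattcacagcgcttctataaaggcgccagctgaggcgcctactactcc
Nr4a1, chr15:101266726-101266845 (+): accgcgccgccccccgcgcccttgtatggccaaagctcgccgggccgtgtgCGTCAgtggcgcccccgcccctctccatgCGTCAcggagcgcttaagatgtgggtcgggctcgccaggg
Ier2, chr8:84662853-84662972 (-): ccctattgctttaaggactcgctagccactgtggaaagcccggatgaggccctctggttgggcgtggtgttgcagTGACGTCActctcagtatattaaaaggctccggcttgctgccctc

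The core of the cAMP response element, TGACG or CGTCA, is bound by CREB and ATF factors. It was present in 6 of the 7 of these genes that are in the RefSeq promoter table of GRCm38 (250 bases before to 50 after the start), and in 20.8% of all 32851 promoters in that table. Egr1, Ier2 and Myc are not in it. The EGR motif GCGNGGGCG was in 2 of the 7 promoters and in 5.55% of all. The full element TGACGTCA, which overlaps the core, was in 0 of the 7 and in 1.79% of all, the serum response element in 0 and 1.63%, and the AP-1 motif TGANTCA in 0 and 7.81%. All motifs were searched on both strands. In the longer windows around the start sites, the serum response element was found in Fos, Fosb and Junb (1 match each) and in Egr1 (5 matches), the AP-1 motif in Fos, Junb, Atf3, Ier2 and Myc (1 match each), and the full cAMP response element in Ier2 (1 match). In the windows of all 10 genes, no measured CpG lay within a match to the cAMP response element, its core or the EGR motif. Matches to the serum response element and the AP-1 motif cannot hold a CpG. The levels below are therefore those of neighbouring CpGs and not of these elements.

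Most of the measured CpGs were unmethylated. Of the 201 CpGs, 182 lay in a CpG island and 176 had a mean level under 3% over the 44 samples, where a level is the share of calls that were methylated. Only 17 had a mean level over 10%, or 8.46%, whereas 38.5% of all CpGs did. No CpG that the authors assigned to a promoter of these genes had a mean over 3.27%. This leaves out Egr1 and Atf3, whose CpGs near the start were assigned to the gene body. An unmethylated and a methylated stretch of Fos show this contrast, with the CpGs measured in capitals. The first lies 1701 to 1542 bp upstream of the start, in no annotated exon, and the second in the coding sequence of the last exon.
Fos upstream, chr12:85472169-85472369 (+): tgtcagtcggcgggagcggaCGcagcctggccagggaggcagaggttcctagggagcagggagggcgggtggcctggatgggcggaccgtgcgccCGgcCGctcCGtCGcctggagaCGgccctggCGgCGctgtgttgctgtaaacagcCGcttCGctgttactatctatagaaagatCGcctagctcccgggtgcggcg
Fos exonic, chr12:85476180-85476314 (+): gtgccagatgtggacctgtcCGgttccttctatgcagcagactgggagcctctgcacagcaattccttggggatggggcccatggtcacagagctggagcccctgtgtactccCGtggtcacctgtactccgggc
The 11 upstream CpGs had a level of 0.489% ± 0.834 and the 2 exonic CpGs 33.4% ± 17.6 (SD, n = 44).

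**Figure D1:**
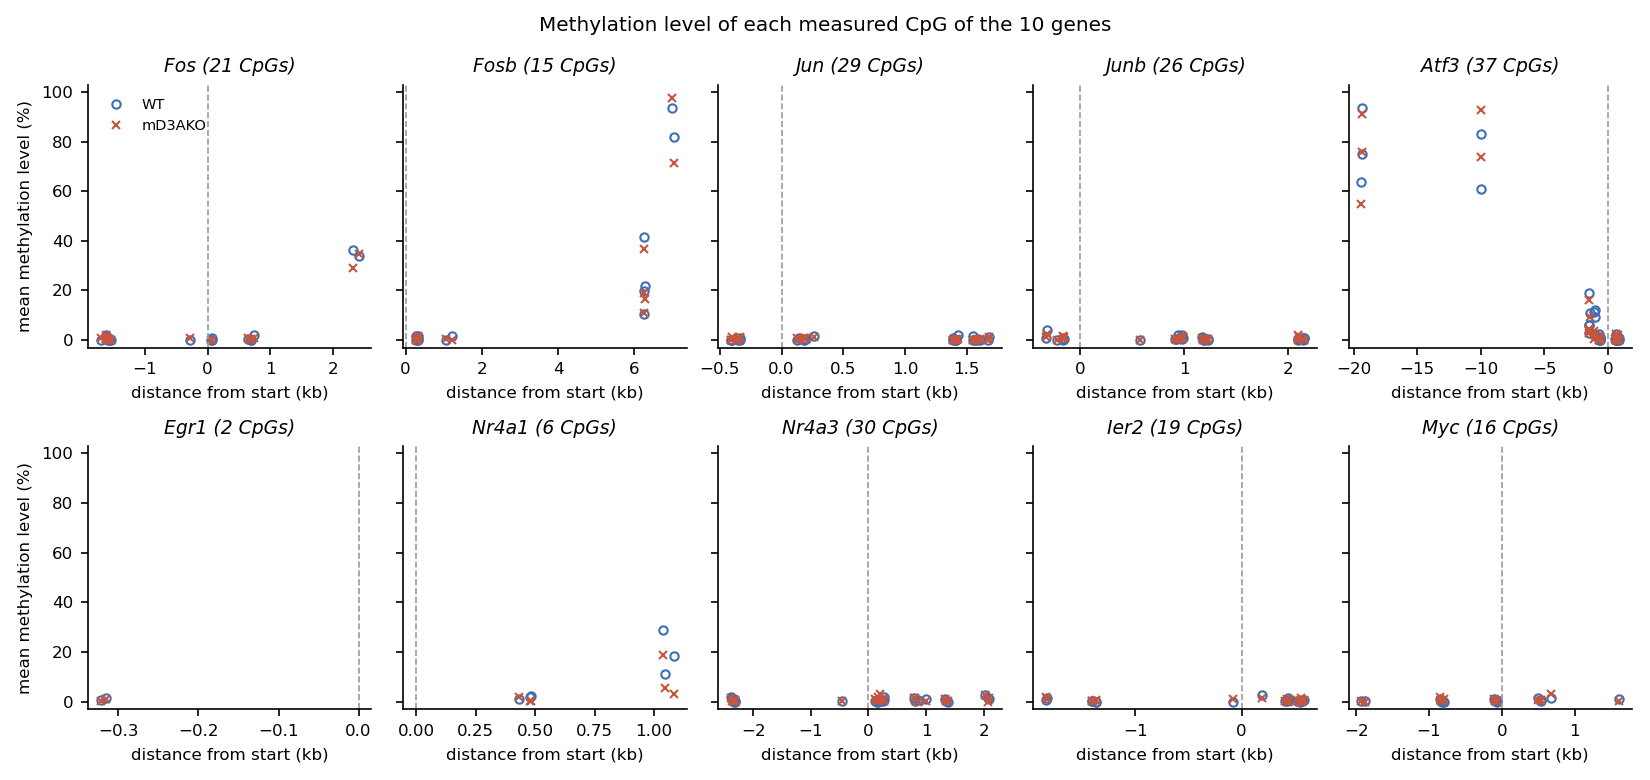
Mean methylation level of each measured CpG of the 10 genes in WT (circles) and mD3AKO (crosses), in percent on the y axis, against its distance from the transcription start in kb on the x axis. Most of the 201 CpGs sit near 0, and the 17 with a mean above 10% over both genotypes lie in Fos, Fosb, Atf3 and Nr4a1.

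The measured parts of the promoters of all 8 genes were almost free of methylation. For Fosb these CpGs all lay downstream of the start used here, at 272 to 327 bp, and for Nr4a1 at 431 to 483 bp downstream. No upstream promoter sequence was thus read in these 2 genes. The AP-1 genes Fos, Fosb, Jun and Junb, whose products pair into the AP-1 transcription factor, had promoter levels of 0.436% ± 0.450, 0.598% ± 1.13, 0.478% ± 0.559 and 1.16% ± 1.24 (SD, n = 44). The levels were 1.16% ± 2.08 in Nr4a1 and 0.60% ± 0.556 in Nr4a3, which encode orphan nuclear receptors, 0.543% ± 0.628 in Ier2, which encodes a small nuclear protein, and 0.691% ± 0.614 in Myc, a transcription factor of growth. In order from the lowest these were Fos, Jun, Ier2, Fosb, Nr4a3, Myc, Nr4a1 and Junb, and each neighbouring pair in that order differed by less than the SD of either gene. The median of all 9761 promoters was 0.793%, and 71.6% of them were under 2%, as all 8 were here. Nr4a1 stood out by its spread, with 3 CpGs measured and 0 methylated calls in many samples beside levels of up to 6.90%.

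Gene bodies were more varied. Fosb had the highest level, 24.9% ± 8.46, followed by Atf3 with 8.93% ± 2.04, Fos with 5.62% ± 3.60 and Nr4a1 with 5.09% ± 4.62 (SD, n = 44). The bodies of Myc (1.13%), Egr1 (0.855%), Nr4a3 (0.773%), Ier2 (0.50%), Junb (0.50%) and Jun (0.435%) lay near 0. Over all 12391 gene bodies the median was 12.6%. The higher bodies drew most of their methylation from few CpGs, in Fosb from 6 CpGs in the 3′ UTR, in Fos from the 2 exonic CpGs shown above, in Nr4a1 from 3 CpGs in an intron, and in Atf3, which encodes a stress-induced partner of JUN, from 5 CpGs of 2 intron clusters that lie 9938 and 19320 bp or more upstream of the start site.

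**Figure D2:**
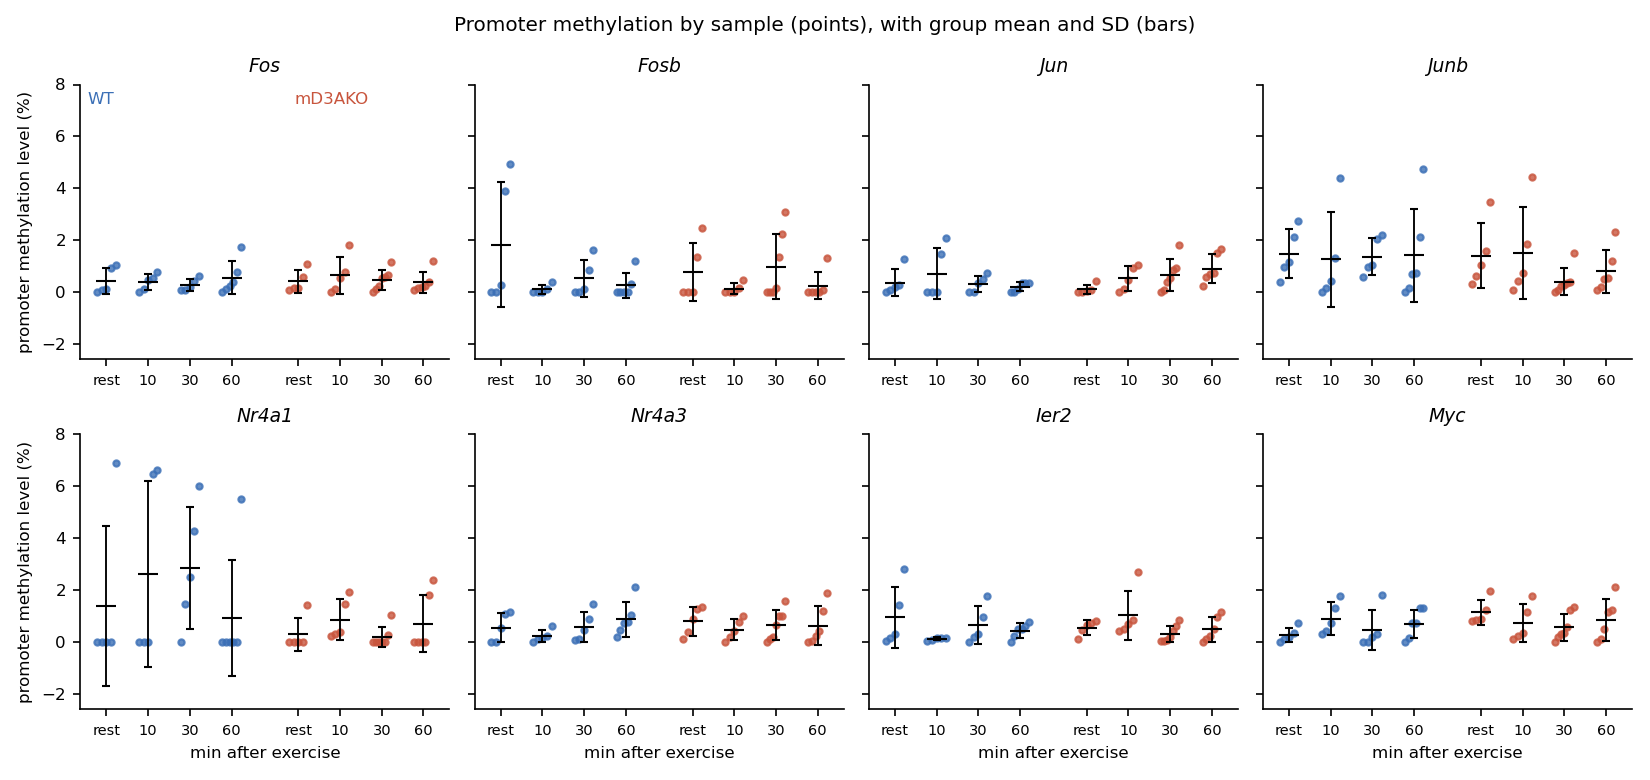
Promoter methylation level (y axis, percent) of the 8 genes with a measured promoter in each of the 8 groups (x axis). Each point is 1 mouse and the bars give the mean ± SD. No sample exceeds 6.90%, and within each genotype the samples after exercise overlap those at rest in every gene.

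The first question was whether any of these genes differed between rest and the times after exercise. None of the 8 promoters, 10 gene bodies, 23 clusters or 201 CpGs passed the test in WT or in mD3AKO. With edgeR's quasi-likelihood test and Benjamini-Hochberg adjustment over all features, 0% of all promoters, gene bodies, clusters and CpGs passed for time in either genotype. With no call anywhere, the adjusted test cannot set these genes apart from others or liken them to others. At an unadjusted p under 0.05, the joint test of 10, 30 and 60 min against rest gave 0 of 8 promoters in WT (background 3.41% of promoters) and 0 of 8 in mD3AKO (2.69%), and 0 of 10 gene bodies in both (3.54% and 2.81%). It gave 4 of 23 clusters in WT, or 17.4% (background 3.22%), and 2 in mD3AKO, or 8.7% (2.13%). Of the 201 CpGs it gave 8 in WT, or 3.98% (2.97%), and 5 in mD3AKO, or 2.49% (2.51%). The shares of clusters were thus above the background, and whether they differ from it was not tested. The likelihood ratio test and limma on log2 ratios of the counts likewise called none of the promoters, gene bodies or clusters of these genes, and limma none of the CpGs.

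Taking each time against rest on its own, none of 48 promoter comparisons passed and 1 had an unadjusted p under 0.05 with edgeR (3.67% of all promoter comparisons). With limma on the level in percent 4 of the 48 had one, and none passed: these were Fosb in WT at 10 and 60 min, Ier2 in WT at 10 min and Jun in mD3AKO at 60 min. The share of all promoter comparisons under limma is not given here. The 3.67% is that of edgeR and is no background for the limma count. With edgeR the count was 4 of 60 for gene bodies (3.88%) and for clusters 7 of 138 (3.3%). For 30 against 10 min it was 0 of 16 promoter comparisons (3.66%), 1 of 20 of gene bodies (3.8%) and 3 of 46 of clusters (3.35%). The sizes of change for which the data leave room are given by the intervals. The promoter levels differed from rest by between -1.72 and 1.46 percentage points, and the 95% intervals of these differences (limma on the level in percent) ran from -3.10 at the lowest to 4.03 at the highest. Each interval holds for its own comparison without adjustment and covers only the measured part of a promoter. The bounds are therefore not a joint limit for the 48 comparisons. Comparisons within a genotype share the rest samples and are not independent.

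**Figure D3:**
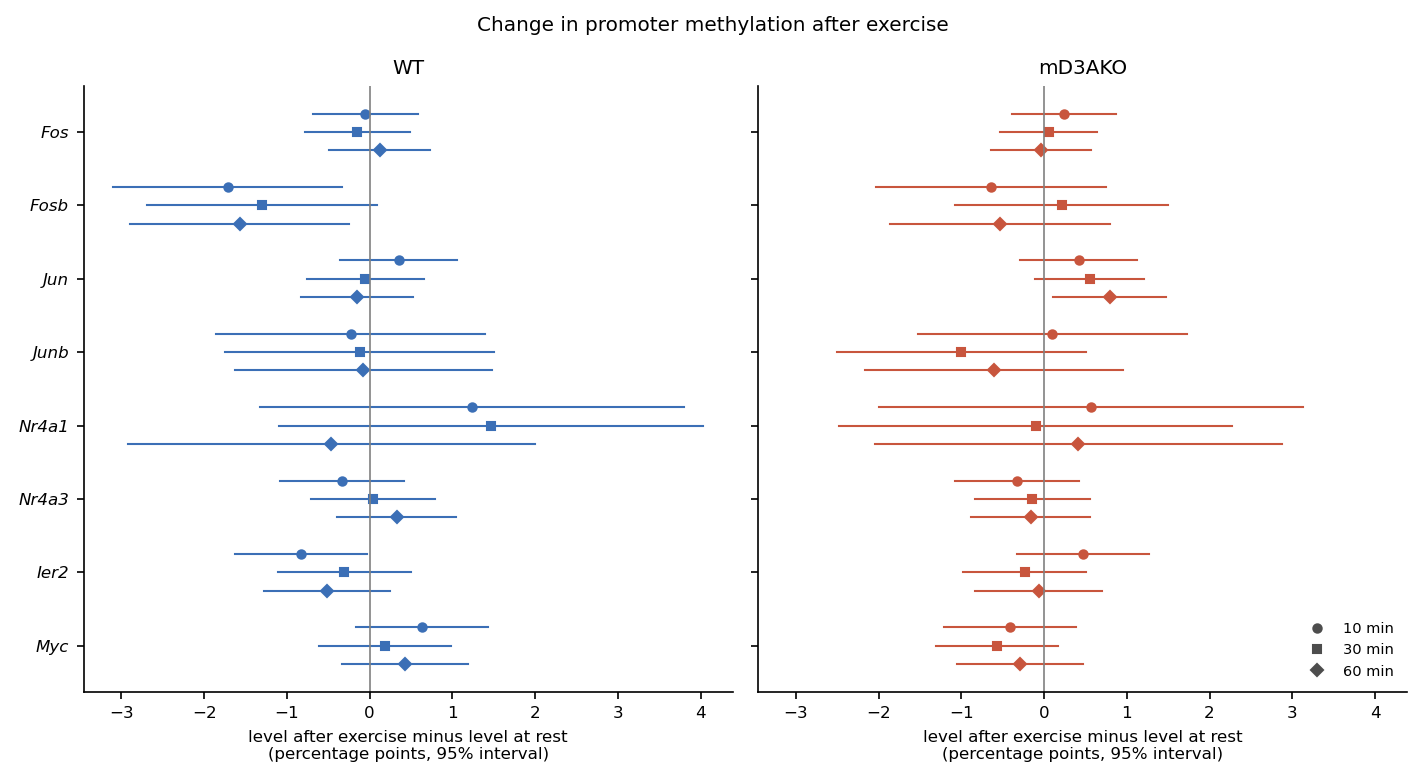
Difference from rest in promoter level (x axis, percentage points) for each gene at 10, 30 and 60 min within WT and mD3AKO, with the 95% interval from limma. The differences lie between -1.72 and 1.46 points, and 4 of the 48 intervals leave out 0. None of the 48 passed after adjustment, and the share of such intervals over all promoters is not given.

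Jun had the lowest p of the promoters. Jun encodes the AP-1 subunit with which FOS proteins pair. In mD3AKO its promoter level was 0, 0, 0.0466, 0.0591 and 0.40% at rest, and between 0.221 and 1.67% with a median of 0.703% at 60 min. The 60 min samples were thus higher in most cases, but the lowest of them lay below the highest at rest. The difference was 0.792 points (95% interval 0.114 to 1.47), with a log2 odds ratio of 3.08 ± 1.29 (SE; edgeR's quasi-likelihood test, unadjusted p = 0.0211, adjusted p = 1). An exact permutation test of the 2 groups, two-sided, gave p = 0.0108, which is 0.519 after Benjamini-Hochberg adjustment over the 48 promoter comparisons. It was the only one of the 48 under 0.05. In WT the levels were 0.355% ± 0.520 at rest (SD, n = 5) and 0.198% ± 0.177 at 60 min (SD, n = 6). The interaction of genotype and time did not pass for the Jun promoter (edgeR's quasi-likelihood test, adjusted p = 1).

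The Jun difference sat in 8 CpGs 408 to 336 bp upstream of the start, which are shown on the strand of the gene in GRCm38.p6 with the measured CpGs in capitals.
Jun upstream, chr4:95052538-95052651 (-): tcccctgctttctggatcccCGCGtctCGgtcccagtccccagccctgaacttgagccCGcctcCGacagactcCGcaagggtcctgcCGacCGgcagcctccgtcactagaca
In mD3AKO the level of this Jun cluster was 0 in 4 of the 5 samples at rest and 0.141% in the other, 0 in all 5 at 10 min, 0 to 0.763% with a median of 0.117% at 30 min, and 0, 0, 0.336, 1.34, 2.92 and 4.78% at 60 min. The 0 at 10 min came from 2601 calls of all 5 mice together, which allows a level of up to 0.115%. For single mice the limit was 0.341 to 0.783%. In WT no sample exceeded 1.73% at any time, and all 5 samples at 10 min were at 0. The joint test of time in mD3AKO had an unadjusted p of 0.00247, that in WT 0.0370 and the interaction 0.00885 (edgeR's quasi-likelihood test, adjusted p = 1 for each). Calls from PCR copies of the same molecule are not told apart in RRBS, and intervals and limits from counts cover counting error only.

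Of the other AP-1 genes, Fos is the partner of JUN in the classical AP-1 dimer and one of the first genes transcribed in a contracting muscle. Its promoter level stayed within 0 and 1.81% in all 44 samples, and the group means ran from 0.268 to 0.644%. The lowest unadjusted p of a time comparison at Fos was that of the exonic pair. In WT the pair had levels of 20.0, 34.7, 40.0, 55.2 and 58.2% at rest and 11.3, 16.4, 16.8, 20.1 and 36.2% at 10 min. In mD3AKO it had 26.8, 29.9, 41.0, 53.2 and 54.4% at rest and 5.42 to 57.3% with a median of 19.3% at 30 min. The lowest group mean was thus that of 10 min in WT and of 30 min in mD3AKO, and both groups overlapped rest. The differences were -21.5 points (95% interval -42.9 to -0.0776) and -20.3 points (-40.1 to -0.458), and edgeR's quasi-likelihood test gave unadjusted p-values of 0.0664 and 0.0297 (adjusted p = 1 for both). The mean level of the pair in WT at 30 min was 40.9%, close to the 41.6% at rest. Each sample had 48 to 260 calls at this pair.

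In Fosb, which encodes a FOS relative that also gives the stable ΔFosB isoform, the WT promoter was at 0, 0, 0.262, 3.88 and 4.95% at rest and at 0, 0, 0, 0.128 and 0.388% at 10 min. Of the samples at rest, 2 lay above the range at 10 min, and the difference was -1.72 points (-3.10 to -0.330; edgeR's quasi-likelihood test, unadjusted p = 0.117, adjusted p = 1). Junb, whose product is a relative of JUN, had promoter group means of 0.399 to 1.5%, and the lowest unadjusted p of the joint tests of time over its promoter, body and clusters was 0.314. For Atf3 the body level was 7.56 to 10.2% in the group means, and the joint tests of time for its body and clusters had unadjusted p-values of 0.362 or higher.

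Egr1 encodes a zinc finger factor that is induced through the serum response element. Only 2 CpGs of Egr1 were measured, 322 and 316 bp upstream of the start, with 26 to 408 calls per sample. Their summed level was 0 in many samples and 0.855% ± 2.08 overall (SD, n = 44), with a single WT sample at 12.5% at 60 min that had 48 calls. The unadjusted p-values of time were 0.539 in WT and 0.58 in mD3AKO, and little can be said of a gene with so few CpGs.

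The receptors Nr4a1 and Nr4a3 are known for their induction by exercise in muscle and for their targets in glucose and lipid metabolism. The promoter of Nr4a1 had levels of 0, 1.46, 2.50, 4.26 and 6.00% in WT at 30 min, and of 0 in 4 samples and 6.90% in the other at rest. This was the largest difference between a time and rest in the direction of more methylation, 1.46 points, and it did not pass (edgeR's quasi-likelihood test, unadjusted p = 0.0843, adjusted p = 1). In Nr4a3, 9 CpGs 2380 to 2306 bp upstream had levels in WT of 0, 0, 0, 0.123 and 1.71% at rest and of 0 to 2.48% with a median of 1.57% at 60 min (joint test of time in WT, edgeR's quasi-likelihood test, unadjusted p = 0.0303, adjusted p = 1). Its whole promoter had group means between 0.213 and 0.868%. Of all promoters, those whose level followed that of Nr4a1 most closely over the 44 samples were Herc3 (Pearson r = 0.649), Ppp1r9a (0.630) and Bin3 (0.622). This is a description, and the points share their libraries and depth.

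In Ier2, 2 CpGs 1836 and 1828 bp upstream had the lowest unadjusted p of the interaction. In WT they were at 0, 0, 2.41, 5.04 and 5.15% at rest and at 0 in all 6 samples at 60 min. In mD3AKO they were at 0 in all 5 samples at rest and at 0, 0.785, 1.42, 7.50 and 8.06% at 10 min. Methylated calls were thus seen in WT at rest but not at 60 min, and in mD3AKO at 10 min but not at rest. The 0 in WT at 60 min came from 680 calls of all mice together (a level of up to 0.441%). For single mice the limit was 1.46 to 11.1%. In mD3AKO at rest there were 745 calls together (up to 0.403%), and the limit for single mice was 1.05 to 3.19%. The limits for single mice reach levels that were seen in other mice. The interaction had an unadjusted p of 0.00228 and an adjusted p of 1 (edgeR's quasi-likelihood test). The promoter of Ier2 as a whole lay between 0 and 2.81% in all samples, and that of Myc between 0 and 2.12%. Myc had its lowest group mean, 0.265%, in WT at rest and its highest, 1.13%, in mD3AKO at rest. These groups were at 0 to 0.702% and 0.78 to 1.96%. They were picked as the extremes of the group means, and the share of all promoters with groups so far apart is not given. Genotype at rest alone was not tested. Over all times the Myc promoter did not pass for genotype (edgeR's quasi-likelihood test, unadjusted p = 0.269, adjusted p = 0.911).

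For the interaction of genotype and time, 0 of 8 promoters, 0 of 10 gene bodies, 2 of 23 clusters and 8 of 201 CpGs had an unadjusted p under 0.05, beside 3.02% of all promoters, 3.36% of gene bodies, 2.74% of clusters and 2.88% of CpGs. None passed after adjustment, as was so for 0% of the features of each kind with edgeR's quasi-likelihood test. The 2 clusters were those of Jun and Ier2 described above.

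The second question was whether these genes differed between the genotypes over all times. After adjustment with edgeR's quasi-likelihood test, 0.789% of all promoters, 1.42% of gene bodies, 1.09% of clusters and 0.289% of CpGs differed between mD3AKO and WT, and 76 of the 77 promoters were lower in mD3AKO. None of the 10 genes was among them at any of these levels. At an unadjusted p under 0.05 there were 0 of 8 promoters (background 8.13%), 0 of 10 gene bodies (9.77%), 1 of 23 clusters (9.56%) and 12 of 201 CpGs (6.39%). The log2 odds ratio of mD3AKO to WT was below 0 in 3 of the 8 promoters, with a median of 0.24, and in 5382 of all 9761, with a median of -0.07. The largest difference among the 8 promoters was that of Nr4a1, -1.44 points (95% interval -2.67 to -0.203; edgeR's quasi-likelihood test, adjusted p = 0.970). The intervals of the other 7 promoters all held 0.

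**Figure D4:**
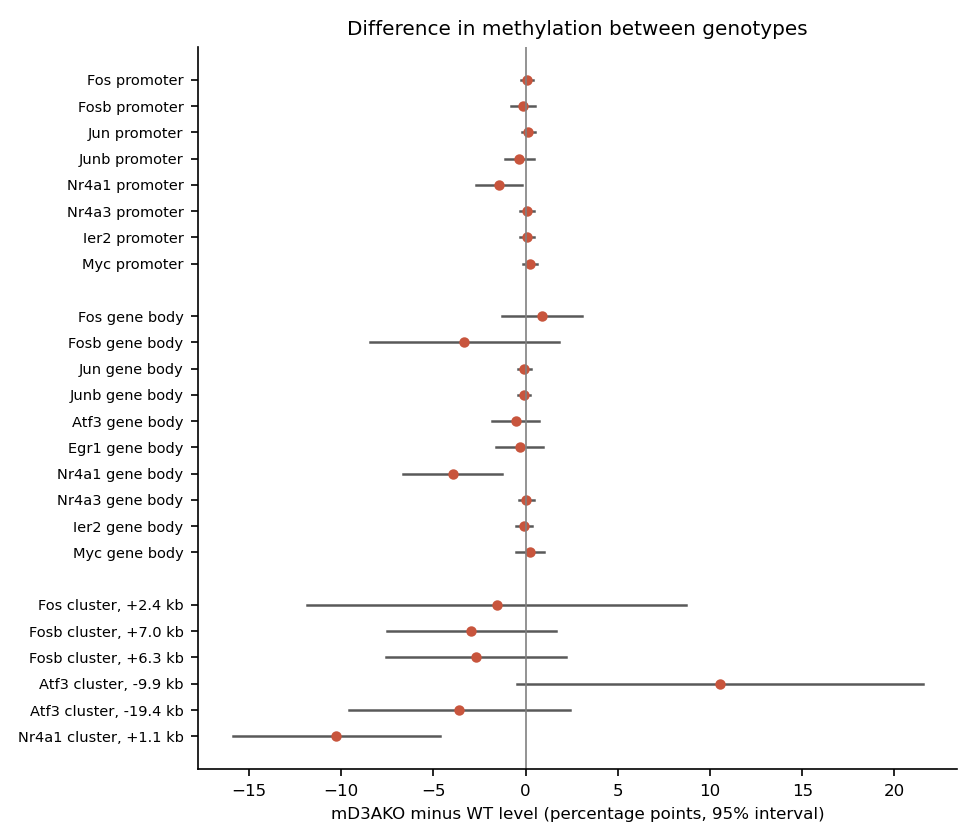
Difference between mD3AKO and WT in level (x axis, percentage points) for the promoters, gene bodies and methylated clusters of the 10 genes, with the 95% interval from limma. Most intervals hold 0, and the cluster in the Nr4a1 intron lies at -10.3 points.

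The single cluster with an unadjusted p under 0.05 for genotype was in Nr4a1. It consists of 3 CpGs in an intron, 1039 to 1082 bp downstream of the start, shown in GRCm38.p6 on the strand of the gene with these CpGs in capitals.
Nr4a1 intron, chr15:101267865-101267949 (+): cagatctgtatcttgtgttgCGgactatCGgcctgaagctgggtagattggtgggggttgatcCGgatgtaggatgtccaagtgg
In WT the Nr4a1 intron cluster had levels of 0, 17.9, 25.0, 34.6 and 43.4% at rest, 0, 7.81, 18.2, 18.3 and 18.8% at 10 min, 10.7, 19.4, 22.1, 24.8 and 26.9% at 30 min, and 0 to 40.4% with a median of 19.3% at 60 min. In mD3AKO the levels were 7.75, 8.28, 9.84, 14.3 and 17.6% at rest, 0, 5.62, 5.88, 6.59 and 12.0% at 10 min, 0 to 15.0% with a median of 3.60% at 30 min, and 8.11 to 19.2% with a median of 13.7% at 60 min. No mD3AKO sample exceeded 19.2%, whereas WT samples reached 43.4%, and the genotypes overlapped below that level.

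Over all times the Nr4a1 intron cluster had a level of 19.4% ± 12.3 in WT (SD, n = 21) and 8.99% ± 5.66 in mD3AKO (SD, n = 23), and the mean was lower in mD3AKO at each of the 4 times. The log2 odds ratio was -1.27 ± 0.53 (SE; edgeR's quasi-likelihood test, unadjusted p = 0.0209, adjusted p = 0.380). On the scale of percent the difference was -10.3 points (95% interval -15.9 to -4.66), and limma on this scale, a test added after the data had been seen, gave an adjusted p of 0.0382 and called 1.98% of all clusters. That call was lost when any 1 of 21 of the 44 samples was left out, with adjusted p-values of 0.00482 to 0.0685 and differences of -11.8 to -9.07 points. The log2 odds ratios of its CpGs were -0.96 ± 0.66 at 1039 bp, -1.24 ± 0.79 at 1047 bp and -2.36 ± 0.83 at 1082 bp (SE; edgeR's quasi-likelihood test, adjusted p = 1, 1 and 0.399), and the difference between the CpGs was not tested. The cluster had 48 to 338 calls per sample. The Nr4a1 body as a whole differed by -3.96 points (-6.64 to -1.28; edgeR's quasi-likelihood test, adjusted p = 0.573).

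Like the Nr4a1 intron cluster, the other methylated clusters of these genes did not pass for genotype with edgeR's quasi-likelihood test. The intervals of these other clusters were wide. The 2 CpGs at the far end of Fosb stood at 87.9% in WT and 84.6% in mD3AKO, and the 4 CpGs before them at 23.5 and 20.9%. The exonic pair of Fos differed by -1.57 points (95% interval -11.8 to 8.71). In Atf3 the cluster 9954 to 9938 bp upstream of the start stood at 72.1% in WT and 83.3% in mD3AKO, with a difference from limma of 10.5 points (-0.493 to 21.5). This was about as large as the difference in the Nr4a1 intron and of the opposite sign (edgeR's quasi-likelihood test, adjusted p = 0.824). For the cluster 19383 to 19320 bp upstream the levels were 75.1 and 71.7%. The single CpG with the lowest unadjusted p for genotype was in the 3′ UTR of Fosb, 6980 bp from the start, and was more methylated in mD3AKO (log2 odds ratio 2.54 ± 0.71 (SE), edgeR's quasi-likelihood test, adjusted p = 0.137).

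**Figure D5:**
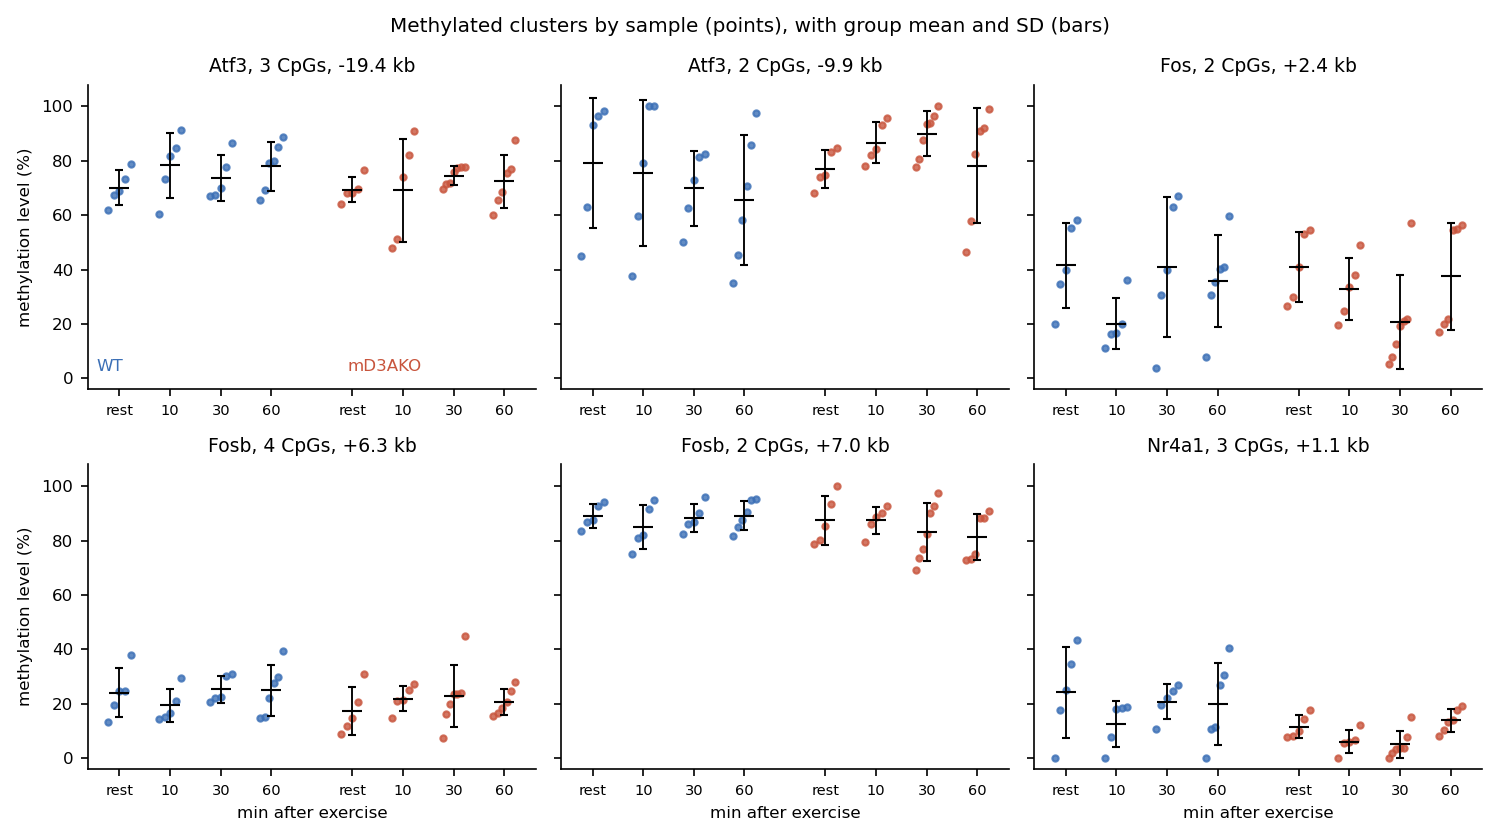
Methylation level (y axis, percent) of the clusters of these genes that hold methylation, in Fos, Fosb, Atf3 and Nr4a1, in each of the 8 groups (x axis). Each point is 1 mouse and the bars give the mean ± SD. In the Nr4a1 intron no mD3AKO sample exceeds 19.2% and WT samples reach 43.4%.

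In the CpG island of Atf3, 3 neighbouring CpGs had levels that the sum over the island did not show. They were chosen after their values had been seen. They lie 1028, 1036 and 1064 bp upstream of the start, in an intron of a longer transcript, and are shown in capitals. The next measured CpG, 1087 bp upstream, was not among those chosen, and its levels are not given.
Atf3 island, chr1:191184341-191184418 (-): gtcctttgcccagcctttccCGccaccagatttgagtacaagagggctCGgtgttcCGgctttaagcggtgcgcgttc
At the middle CpG of Atf3, WT had 0, 0, 0, 0.775 and 4.65% at rest, 0, 19.8, 19.8, 28.9 and 33.3% at 10 min, and 0, 17.1, 25.3, 31.4 and 31.6% at 30 min. At 60 min the WT levels were 0 to 15.3%. In mD3AKO they were 0, 0, 0.870, 3.70 and 17.6% at rest, 0, 0, 0, 3.75 and 4.94% at 10 min, 0 to 5.43% at 30 min and 0 to 10.7% at 60 min. In WT, 4 of 5 samples at 10 min and 4 of 5 at 30 min lay above every WT sample at rest and above every mD3AKO sample other than the one at 17.6%. The share of all CpGs with groups so far apart is not given.

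At the CpG of Atf3 1064 bp upstream, WT had 0 in 4 samples at rest and 3.88% in the other, 0, 20.8, 25.2, 33.3 and 37.0% at 10 min, and 0, 8.18, 18.6, 21.7 and 31.4% at 30 min. Here too 4 of 5 WT samples at each of these times lay above all at rest. At the CpG 1028 bp upstream 3 of 5 did. For these counts too, the share over all CpGs is not given. For time in WT, edgeR's quasi-likelihood test gave unadjusted p-values of 0.00923 at 1064 bp, 0.0177 at 1036 bp and 0.164 at 1028 bp (adjusted p = 0.906 for all), and at 1036 bp the log2 odds ratio for genotype was -2.50 ± 0.86 (SE, adjusted p = 0.370). The times at which WT was high, 10 and 30 min, are those of the later sample numbers, and time and sample set cannot be told apart in this contrast. In mD3AKO the mean levels at 10 and 30 min were no higher than at rest at any of the 3 CpGs. The interaction of genotype and time did not pass at 1064 bp (edgeR's quasi-likelihood test, unadjusted p = 0.0404). Coverage at these 3 CpGs was 36 to 405 reads. The Atf3 island as a whole differed between genotypes by -1.04 points (95% interval -1.84 to -0.242; edgeR's quasi-likelihood test, adjusted p = 0.556).

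The lowest p-value for time in WT among the single CpGs of these genes was in the 3′ UTR of Fosb, 6243 bp downstream of the start. In the order rest, 10, 30 and 60 min, its mean levels were 5.25, 1.33, 11.5 and 21.3% in WT and 6.26, 12.5, 16.4 and 7.88% in mD3AKO. It did not pass for time in WT (edgeR's quasi-likelihood test, unadjusted p = 0.00681, adjusted p = 0.906) or for the interaction (unadjusted p = 0.0184, adjusted p = 1).

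In Jun, Junb, Nr4a3, Ier2 and Myc, the CpGs with the widest spread were at 0 in many samples and high in a few. The one of Jun 1431 bp downstream of the start was at 0 in 36 of 44 samples and reached 37.9% in 1 sample. The one of Junb at 2093 bp downstream was at 0 in 40 samples and reached 39.5%, that of Nr4a3 at 202 bp downstream was at 0 in 37 and reached 37.0%, that of Ier2 at 195 bp downstream was at 0 in 36 and reached 26.7%, and that of Myc 843 bp upstream was at 0 in 31 and reached 22.2%. The mean levels of these 5 CpGs were 1.14 to 2.03%. Methylation was less sparse at the CpG of Junb 311 bp upstream, which was at 0 in 22 samples, had a mean of 3.27% and exceeded 10% in 4, and at that of Myc 669 bp downstream, which was at 0 in 26 and had a mean of 2.21%. In Fos, Fosb, Atf3 and Nr4a1 the CpGs of widest spread were those of the methylated clusters. The CpG of Atf3 at 9938 bp upstream spanned 0 to 100% with a mean of 67.7%, and that of Fos at 2403 bp downstream spanned 0 to 100% with a mean of 34.3%.

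Other genes of the same response gave no call. Of 50 further immediate early and activity-induced genes, such as Egr2, Fosl2, Dusp1 and Klf4, promoters of 43 were measured, with a median level of 0.633% and the highest levels in Npas4 (36.5%) and Gadd45g (15.3%). None of the 43 passed for genotype, time or the interaction, and at an unadjusted p under 0.05 there were 6 for genotype, 3 for the interaction, 1 for time in mD3AKO and 2 for time in WT, against the 8.13%, 3.02%, 2.69% and 3.41% of all promoters given above. The lowest was Ier3 for genotype (edgeR's quasi-likelihood test, adjusted p = 0.418). Of 38 genes upstream of them, among them the serum response factor Srf, CREB and its coactivators and the MAP and calmodulin kinases, 33 promoters were measured, with a median level of 0.611% and the highest levels in Camk2a (42.0%) and Rps6ka1 (28.0%). None passed, and the counts at an unadjusted p under 0.05 were 4, 4, 2 and 3 in the same order. The lowest was Atf1, a relative of CREB, for genotype (edgeR's quasi-likelihood test, adjusted p = 0.158).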

How the data were processed

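RRBS was done on soleus DNA of 50 mice, of which 44 had counts in the table and 6 were not analysed here (1 of them with labels that disagree on genotype). The authors trimmed reads with Trim Galore 0.4.0 and cutadapt 1.9.1, aligned them to mm10 with Bismark 0.18.1 and added both strands. CpGs had to have 8 or more reads in each sample, chromosomes M, X and Y were removed, and the deposited values are raw counts of methylated and unmethylated calls, given with the promoter, gene body (GENCODE M15) and cluster of each CpG. Replicates are separate mice, numbered as in the labels. Mice of 1 group, compared in 101 pairs, had a chi-square of 5.97 to 13.9 per CpG, to which mice and PCR copies both add, and no 2 held the same counts. PCR copies were not removed, and calls overstate the number of molecules.

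Counts were summed over promoters, gene bodies and clusters and tested in edgeR 4.0.16 (R 4.3.3) with a coefficient per sample and a methylated fraction for each of the 8 groups, without a dispersion trend. The quasi-likelihood F test was adjusted by Benjamini-Hochberg over all features of a kind, with calls at an adjusted p under 0.05. The spread was shared by all 44 samples. The SE given for a log2 odds ratio is its size divided by the square root of the F statistic. It was worked back from the test and is approximate. Intervals came from limma 3.58.1 on the level in percent. Calls with limma on that scale (each time against rest, 30 against 10 min, and genotype in gene bodies and clusters) were added after the data had been seen. Exact permutation tests were two-sided. The limit given for a level of 0 is 3 calls of the total of the group, or of the mouse where single mice are named. The scripts were tested on simulated data. Figures were drawn with matplotlib 3.10.9 in Python 3.11.15.

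Distances are from the start site in RefSeq (GRCm38.p6, from its promoter table or gene record). Exons, introns and UTRs come from GENCODE, and CpG islands were 200 bp windows (GC fraction from 0.5, observed over expected CpG from 0.6). The members and gene lists were chosen with earlier results of these data known. All 10 genes were named, with their promoter, body, nearest cluster, the cluster with the lowest p for time, the CpGs of widest spread (at most 2 each) and any CpG in a listed motif. The lists were other immediate early genes, their upstream factors, and markers of slow muscle, blood cells, endothelium and liver. Alternatives were the likelihood ratio test, limma on the log2 ratio of counts (pseudocount 1), the unweighted mean of CpG levels, a coverage of at least 20, a sex term, cluster gaps of 50 and 200 bp, and leaving out each sample.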

Additional observations from a re-analysis of the deposited data

Results flagged for a closer look

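The highest or lowest mouse stood apart from its group (Dixon's test at the 95% level) in 25 of 192 groups of promoter, gene body and cluster levels. Not all of the clusters were among the 192. For normally distributed levels chance flags about 1 in 20, or 9.6 of 192. Levels with several mice at 0 are not normally distributed, so the 25 cannot be set against the 9.6. Promoters and bodies also share CpGs, so the groups are not independent. In 23 of the 25 the mouse was the highest, and 18 different mice were involved. Many of these groups hold several mice at 0.

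In Fos the highest level was 1.19% in the promoter (mD3AKO, 60 min), 17.0% (WT, 30 min) and 11.3% (mD3AKO, 30 min) in the body, and 57.3% at the exonic pair (mD3AKO, 30 min), the last 2 in the same mouse. In the Fosb promoter it was 1.18% (WT, 60 min), 0.469% (mD3AKO, 10 min) and 1.31% (mD3AKO, 60 min), and in the Jun promoter 1.27% (WT, rest) and 0.40% (mD3AKO, rest). The second of these is the Jun value at rest that overlapped the group at 60 min. In Junb it was 1.5% in the promoter (mD3AKO, 30 min) and 1.45% in the body (mD3AKO, 10 min).

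The 2 CpGs of Egr1 gave 5 of the 25, with 0.926% (WT, 10 min), 2.26% (WT, 30 min), 12.5% (WT, 60 min), 4.83% (mD3AKO, 10 min) and 1.16% (mD3AKO, 60 min). At 48 calls, the mouse at 12.5% had few reads behind it. In Atf3 the lowest body levels were 4.79% (WT, 60 min) and 6.00% (mD3AKO, rest). The Nr4a1 promoter had 6.90% (WT, rest), 5.49% (WT, 60 min), 1.42% (mD3AKO, rest) and 1.03% (mD3AKO, 30 min), and the other mice of those groups were at 0 or at most 0.259%. The Ier2 promoter had 2.67% (mD3AKO, 10 min). In Myc 1 WT mouse at 30 min was highest in both the promoter, at 1.78%, and the body, at 3.66%.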

How the results depend on the processing

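None of the promoters, gene bodies, clusters or CpGs of the 10 genes passed for time, genotype or the interaction under the following alternatives, as far as each was run on it. They were the likelihood ratio test, limma on log2 ratios, the unweighted mean of CpG levels, a coverage of at least 20 reads (8 promoters, 9 gene bodies and 16 clusters left), a sex term, cluster gaps of 50 and 200 bp, and leaving out each of the 44 mice. Of 277 counts of calls over these alternatives 276 equalled that of the main test. The exception, chosen after seeing the data, was limma on the level in percent, which called 1 cluster for genotype, that of the Nr4a1 intron. The leave-one-out fits used the 8 promoters with 391 others, each giving 0 calls, and the lowest adjusted p was 0.805 for genotype, 0.874 for time in WT, 0.986 for the interaction and 0.990 for time in mD3AKO. No paired analysis was possible because each sample number belongs to a single mouse. With 5 to 7 mice a group and levels near 0, small differences were not detectable, and CpGs outside MspI fragments were not measured.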
